A study of Mus musculus with 19 samples.

Results

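All 19 mammary tumours of the study were compared as a pair of pooled groups, 10 tumours whose genotype label includes itgb1 fl/fl (Itgb1-floxed) and 9 whose label does not (Itgb1-intact). The Itgb1-floxed tumours were 4 of genotype NIC itgb1 fl/fl (Itgb1 KO) and 6 carrying both itgb1 fl/fl and itgb3 fl/fl, which the labels call DKO (labelled DKO below). The Itgb1-intact tumours were 4 of genotype NIC itgb3 fl/fl (Itgb3 KO) and 5 of genotype NIC WT (control). Every tumour, controls included, carried the MMTV-NIC transgene, in which the mammary MMTV promoter drives an activated ErbB2 and Cre recombinase from 1 transcript. By this design Cre is made in the mammary epithelium, and the fibroblasts, vessels and immune cells of an Itgb1-floxed tumour would keep their Itgb1. Itgb1 was not measured by cell type. Tumours were flash frozen at end burden, and no label states an age. Nor do the labels tie each tumour to a mouse of its own, so every p-value refers to the spread among tumours, which may be partly technical.

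Itgb1 encodes the β1 integrin, which pairs with many α subunits to form the main receptors of epithelial cells for collagens, laminins and fibronectin. Bound β1 integrins gather talin, kindlin, integrin-linked kinase and focal adhesion kinase at the membrane and pass signals to the same kinases that ErbB2 uses. The β3 integrin, encoded by Itgb3, pairs with αv in a receptor for vitronectin and other matrix proteins, and is also made by endothelium, platelets and macrophages.

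Levels were read as deposited log2 intensities of a whole-transcript array, where a difference of 1 is a doubling. After probe sets were reduced to 1 per gene, 14231 genes were tested. Array medians ran from 4.32 to 4.46 in the Itgb1 KO tumours, from 4.32 to 4.34 in the labelled DKO tumours, from 4.41 to 4.48 in the Itgb3 KO tumours and from 4.32 to 4.46 in the controls. Upper quartiles ran from 6.373 to 6.414 in the Itgb1 KO tumours and from 6.377 to 6.425 in the labelled DKO tumours. They ran from 6.345 to 6.361 in the Itgb3 KO tumours and from 6.366 to 6.377 in the controls. The arrays resembled one another, with median correlations of 0.944 (labelled DKO tumour 6) to 0.97 and 0.981 for the closest pair. The luminal epithelial genes Krt8, Krt18, Epcam and Cdh1, which mark the tissue named by the labels, were far above the table median of 4.38 on every array, and the lowest value among these genes was 9.53 for Cdh1.

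The Itgb1 transcript was lower in every Itgb1-floxed tumour than in any Itgb1-intact tumour. Its log2 level (probe set 17507014) had a lowest, median and highest value of 7.93, 8.44 and 9.20 in the Itgb1-floxed tumours, against 9.81, 10.17 and 10.32 in the Itgb1-intact tumours. Itgb1 fell by 1.64 (SE 0.15, 3.11-fold, 95% interval -1.95 to -1.32, limma adjusted p = 7.85e-06). The exact two-sided permutation p was 1.08e-05, the smallest that 92378 assignments of 10 and 9 tumours can give (3.24e-05 adjusted over 3 genes). The mean was 8.70 ± 0.29 (SD, n = 4) in the Itgb1 KO tumours and 8.32 ± 0.48 (n = 6) in the labelled DKO tumours, against 10.04 ± 0.20 (n = 4) in the Itgb3 KO tumours and 10.16 ± 0.19 (n = 5) in the controls. In whole tumour RNA, fewer cells that express a gene and less transcript per cell cannot be told apart.

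Itgb3 did not follow its label in the labelled DKO tumours. Its log2 level (probe set 17257235) was 8.15, 8.98, 7.92 and 7.90 in the 4 Itgb1 KO tumours and 7.69 to 8.55 in the 6 labelled DKO tumours. The 4 Itgb3 KO tumours lay at 6.34, 7.31, 6.97 and 7.40, and the 5 controls at 8.09, 8.23, 7.72, 8.16 and 8.41. Only the Itgb3 KO tumours therefore stood below the other groups, and in the pooled comparison they all belong to the Itgb1-intact side. The pooled difference of Itgb3 was 0.55 (SE 0.24), with a limma adjusted p of 0.281 and an exact permutation p of 0.0435 (0.0652 adjusted over the same 3 genes). It passed at 0.0441 with arrays centred on their medians and in 6 of the fits that leave out 1 tumour, and fell short in the others. Wherever the label DKO is used below, it carries this limit. Erbb2, whose activated form the transgene carries, was read on probe set 17255999. Whether that probe set reads the transgene transcript was not tested. It had a lowest, median and highest log2 level of 9.07, 9.83 and 10.09 in the Itgb1-floxed tumours and 9.47, 9.77 and 10.28 in the Itgb1-intact tumours. The Erbb2 ranges overlapped, and its difference of -0.09 (SE 0.13) had an exact permutation p of 0.534.

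**Figure D1:**
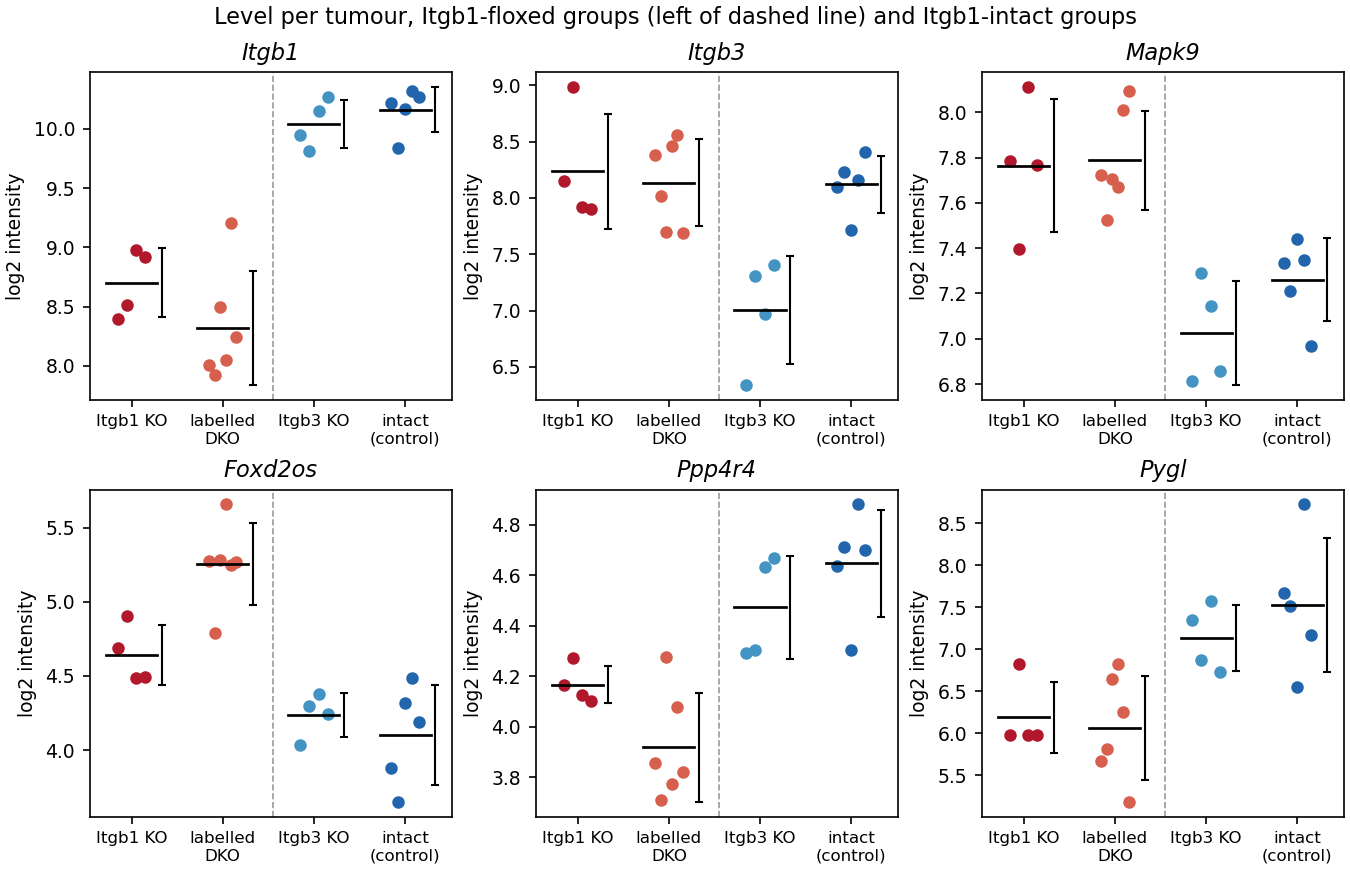
Log2 intensity of 6 genes in each tumour (points), with the group mean (line) and SD (bar), for Itgb1 KO and labelled DKO tumours (Itgb1-floxed, left of the dashed line) and Itgb3 KO tumours and controls (Itgb1-intact, right). For Itgb1 and Ppp4r4 all 10 Itgb1-floxed tumours lie below all 9 Itgb1-intact tumours, and for Itgb3 the Itgb3 KO tumours are the low group.

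Across the transcriptome, the pooled comparison called 1 of 14231 genes (0.00703%), and that gene was Itgb1 itself. By limma, 0 genes passed in the higher direction. At an unadjusted p under 0.05 there were 2183 genes (15.3%), against 711.55 that a uniform p would give, and they were unevenly split, with 1540 higher (10.8%) and 643 lower (4.52%) in the Itgb1-floxed tumours. With each array centred on its median this split became 2449 higher and 285 lower, and with quantile normalization 1166 higher and 768 lower, so the balance of directions depends on the scaling. The median difference over all genes was 0.03 as deposited, 0.09 after centring and 0.01 after quantile normalization. Array distributions also differed between the pooled groups. Every Itgb1-floxed array except that of Itgb1 KO tumour 2 had a higher upper quartile than all Itgb1-intact arrays. The narrowest margin was 6.37703 in labelled DKO tumour 2 against 6.37654 in control 1. The part of this shift in the split was not tested beyond these scalings. The count of 1 was sensitive to single tumours. It was 26 (17 higher and 9 lower) without Itgb1 KO tumour 2, 4 without Itgb1 KO tumour 3, control 3 or control 4, 3 without Itgb1 KO tumour 4 and 2 without control 5, and it was 1 with any other tumour left out.

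Among genes higher in the Itgb1-floxed tumours, the 8 named for the smallest p did not pass. Mapk9, which encodes the stress kinase JNK2, had a lowest, median and highest log2 level of 7.39, 7.75 and 8.11 in the Itgb1-floxed tumours and 6.81, 7.21 and 7.44 in the Itgb1-intact tumours. Of the 10 Itgb1-floxed tumours, 9 lay above every Itgb1-intact tumour for Mapk9, and its difference was 0.62 (SE 0.11, adjusted p = 0.058, 0.012 to 0.148 over the alternatives, past the threshold in 8 of 30). The long non-coding RNA Foxd2os lay at 4.48, 5.08 and 5.66 (lowest, median, highest) in the Itgb1-floxed tumours, against 3.65, 4.24 and 4.48 in the Itgb1-intact tumours. Its difference of 0.84 (adjusted p = 0.058, 0.0139 to 0.161 over the alternatives, past the threshold in 9 of 30) rests on low intensities, since 8 of the 9 Itgb1-intact tumours lay under the table median. Lrrc32, which encodes GARP, the membrane anchor of latent TGF-β, had the widest difference of the 8 named higher genes at 0.87. It lay at 5.61, 6.45 and 7.11 in the Itgb1-floxed tumours and 5.11, 5.60 and 6.08 in the Itgb1-intact tumours, with 9 Itgb1-floxed tumours above all Itgb1-intact ones. The other named genes were N4bp3 (0.68), Syt11, a synaptotagmin of vesicle traffic (0.49), Akap13, a RhoA activator that also anchors protein kinase A (0.48), Xylt1, which starts glycosaminoglycan chains on proteoglycans (0.46), and Garre1, a Rac-binding protein (0.39). These 5 and Lrrc32 had an adjusted p of 0.102. With the probe set of highest variance Garre1 differed by 0.61.

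The pooled groups did not overlap for 5 genes (0.0351%). In 3 of them every Itgb1-floxed tumour lay above every Itgb1-intact tumour (0.0211% of all genes), and these are named after their values were seen. Dock4, an exchange factor that activates Rac and Rap, had log2 levels of 6.55 to 7.26 in the Itgb1-floxed tumours and 5.94 to 6.52 in the Itgb1-intact tumours. Olfm1, a secreted glycoprotein, lay at 4.89 to 5.69 in the Itgb1-floxed tumours and 4.03 to 4.84 in the Itgb1-intact tumours. Hook3, which couples cargo to the dynein motor, lay at 7.36 to 7.64 in the Itgb1-floxed tumours and 6.85 to 7.34 in the Itgb1-intact tumours. None of these genes passed (adjusted p = 0.102 for Dock4 and Olfm1 and 0.122 for Hook3), and their differences were 0.52, 0.56 and 0.32.

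The converse, every Itgb1-floxed tumour below every Itgb1-intact tumour, held for 2 genes (0.0141%), Itgb1 and Ppp4r4. Ppp4r4, a regulatory subunit of protein phosphatase 4, had a lowest, median and highest log2 level of 3.71, 4.09 and 4.28 in the Itgb1-floxed tumours and 4.29, 4.64 and 4.88 in the Itgb1-intact tumours. All 10 Itgb1-floxed values were under the table median, and the difference of -0.55 (adjusted p = 0.0626) shrank to -0.22 when values under that median were raised to it. Pygl, the liver form of glycogen phosphorylase, lay at 5.18, 5.98 and 6.82 in the Itgb1-floxed tumours and 6.56, 7.35 and 8.73 in the Itgb1-intact tumours. The Pygl ranges overlapped in 3 Itgb1-floxed tumours, and its difference was -1.24 (SE 0.25, 2.36-fold, adjusted p = 0.102), with -1.07 in labelled DKO against Itgb3 KO and -1.34 in Itgb1 KO against control. Galnt12, which adds the first sugar of mucin-type O-glycans, differed by -1.30 (adjusted p = 0.122), with -1.16 and -1.25 in the same pair of comparisons. Pls1, an actin-bundling plastin, differed by -0.69 (0.122), with -0.66 and -0.60. Foxf1, a forkhead factor of mesenchyme, differed by -0.44 (0.102), and Defb25, a β-defensin, by -0.33 (0.122).

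Gabra4, a subunit of the GABA-A receptor, had the largest pooled difference of all genes tested, at -3.50 (SE 0.73, adjusted p = 0.102), and its spread was correspondingly wide. Its log2 level was 6.37, 8.25, 5.57 and 8.37 in the 4 Itgb1 KO tumours and 2.56 to 4.94 in the labelled DKO tumours, against 8.69, 8.56, 8.96 and 6.98 in the Itgb3 KO tumours and 7.47 to 9.83 in the controls. The labelled DKO tumours were therefore the low group, and 2 Itgb1 KO tumours lay within the range of the Itgb1-intact ones. Fitted alone, labelled DKO against Itgb3 KO gave -5.09 (adjusted p = 0.00325) and Itgb1 KO against control -1.12 (SE 0.62, unadjusted p = 0.0993). With equal weight for the 4 group means the pooled difference of Gabra4 was -3.11 and passed at 0.00534.

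Most of the other integrin genes were higher in the Itgb1-floxed tumours, without passing. Of 26 integrin subunit genes 24 were measured, 21 had a difference above 0, and the median was 0.24, against 57% of genes above 0 and a median of 0.03 over all genes. Itgb1 was the only member to pass, and 8 others had an unadjusted p under 0.05 in the higher direction (10.8% of all genes did). The 21 above 0 include Itgb3 (0.55), for which the Itgb3 KO tumours, all on the Itgb1-intact side, were the low group. Itga2, the α subunit of the α2β1 collagen receptor and so a partner of β1, had a lowest, median and highest log2 level of 4.81, 5.55 and 6.49 in the Itgb1-floxed tumours and 4.64, 4.98 and 5.12 in the Itgb1-intact tumours. In 9 of 10 Itgb1-floxed tumours Itga2 lay above all Itgb1-intact ones, and its difference was 0.70 (SE 0.15, adjusted p = 0.109, 0.0324 to 0.228 over the alternatives). Itgb5, which pairs with αv in a vitronectin receptor, lay at 9.41, 9.86 and 10.36 in the Itgb1-floxed tumours and 8.89, 9.61 and 9.67 in the Itgb1-intact tumours, a difference of 0.47 (adjusted p = 0.159). Itgav, its α partner, differed by 0.39 (0.177), and Itgb4, which joins α6 in the laminin receptor of hemidesmosomes, by 0.65 (0.165). The leukocyte subunits Itgax, Itgam and Itgb2 differed by 0.57, 0.43 and 0.33. The members below 0 beside Itgb1 were Itga6 (-0.17) and Itga1 (-0.20), α subunits of laminin and collagen receptors. Both intervals included 0.

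**Figure D2:**
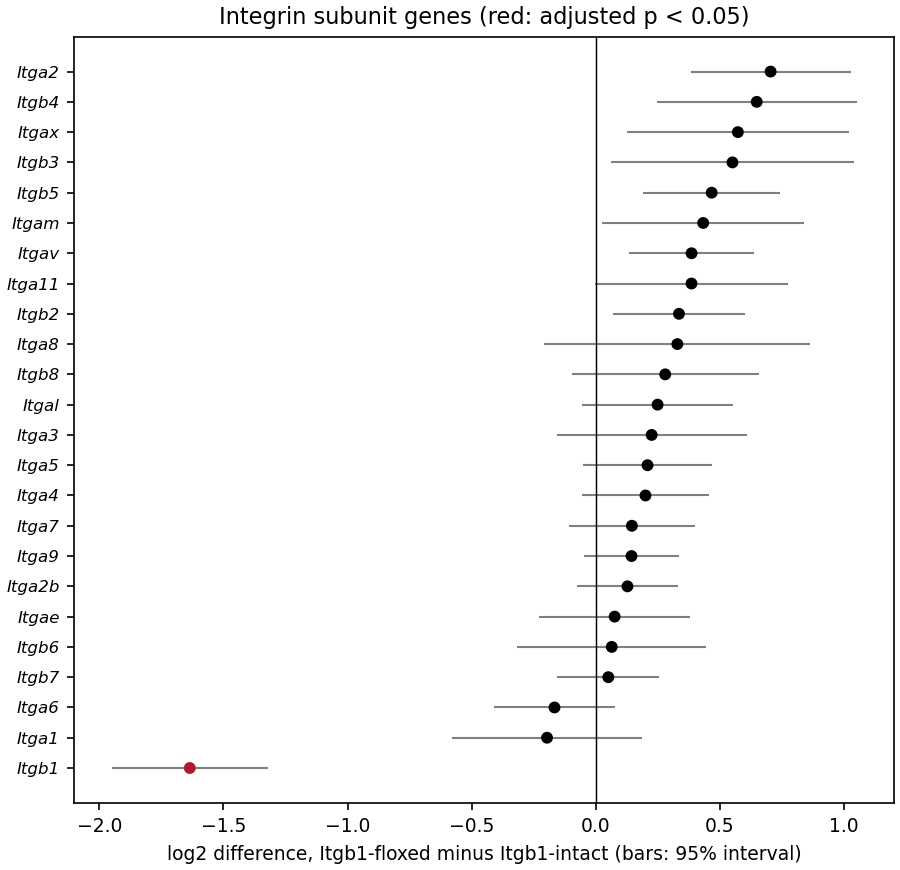
Pooled log2 difference, Itgb1-floxed minus Itgb1-intact tumours, for the 24 measured integrin subunit genes (points) with its 95% interval (bars). Itgb1 at -1.64 is the only gene that passed, and Itga2 at 0.70 is the highest.

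Genes of the interstitial matrix were shifted toward the Itgb1-floxed tumours, and so were fibroblast markers. All 27 measured of 30 matrix genes had a difference above 0 (57% of all genes did), 16 of them at an unadjusted p under 0.05 (10.8% of all genes in that direction), with a median of 0.60, and none passed. Col15a1, a collagen at the border of basement membrane and interstitium, had a lowest, median and highest log2 level of 5.53, 6.16 and 6.69 in the Itgb1-floxed tumours and 4.77, 5.33 and 5.91 in the Itgb1-intact tumours. The Col15a1 difference was 0.68 (SE 0.16, adjusted p = 0.122), with 6 Itgb1-floxed tumours above all Itgb1-intact ones. Col8a1, a network collagen of vessels, differed by 1.08 (0.159) and Col14a1, a fibril-associated collagen, by 0.99 (0.159). Of 20 matrix proteases and inhibitors 17 lay above 0 (median 0.35), including the membrane protease Mmp14 (0.80), the metalloprotease inhibitor Timp1 (0.97) and the urokinase receptor Plaur (0.41), with adjusted p-values of 0.155, 0.175 and 0.173. Basement membrane genes had a median of 0.27, with Hspg2, which encodes perlecan, at 0.50 (adjusted p = 0.159). Of 18 mesenchymal transition genes 15 lay above 0 (median 0.28, highest 1.08), among them the mesenchymal cadherin Cdh11 at 1.02 (0.159). In labelled DKO against Itgb3 KO the medians were 0.86 (interstitial matrix), 0.49 (proteases and inhibitors), 0.43 (basement membrane) and 0.41 (mesenchymal transition). In Itgb1 KO against control they were 0.24, 0.16, 0.01 and 0.09, in the same order.

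The fibroblast marker list moved with these genes. Its 17 measured of 19 markers had a median of 0.62, with 15 above 0 (57% of all genes were). The mean of its members in a tumour, relative to the mean of the 9 Itgb1-intact tumours, ran from -0.48 to 1.12 in the Itgb1-floxed tumours (median 0.53) and from -1.24 to 0.79 in the Itgb1-intact tumours (median -0.07). The ranges overlapped, with labelled DKO tumour 2 the highest and Itgb3 KO tumour 2 the lowest of all. Without Itgb3 KO tumour 2 the median of the fibroblast list was 0.35 and that of the interstitial matrix list 0.42. With the fibroblast and adipocyte marker means as covariates the interstitial matrix list had a median of 0.15, the protease list 0.15 and the basal and myoepithelial list 0.14, while Itgb1 kept its side of the threshold. Both the fibroblast and the matrix list hold collagens, so these medians are not independent of one another. Macrophage markers had a median of 0.34, with 19 of 21 measured above 0, and the means ran from -0.33 to 0.76 in the Itgb1-floxed tumours and from -0.18 to 0.35 in the Itgb1-intact tumours. Adgre1, the macrophage marker F4/80, differed by 0.60 (adjusted p = 0.154), Csf1r, the receptor for the macrophage growth factor CSF1, by 0.59 (0.173) and Aif1 by 0.44 (0.173). Endothelial markers had a median of 0.19, pericyte and smooth muscle markers 0.28, and T and NK cell markers -0.05. In labelled DKO against Itgb3 KO the medians were 0.73 (fibroblast), 0.52 (macrophage), 0.27 (endothelial), 0.51 (pericyte and smooth muscle) and 0.07 (T and NK). In Itgb1 KO against control they were 0.32, 0.13, 0.09, -0.02 and -0.02, in the same order. The part of cell composition in the gene differences was not tested beyond these values.

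**Figure D3:**
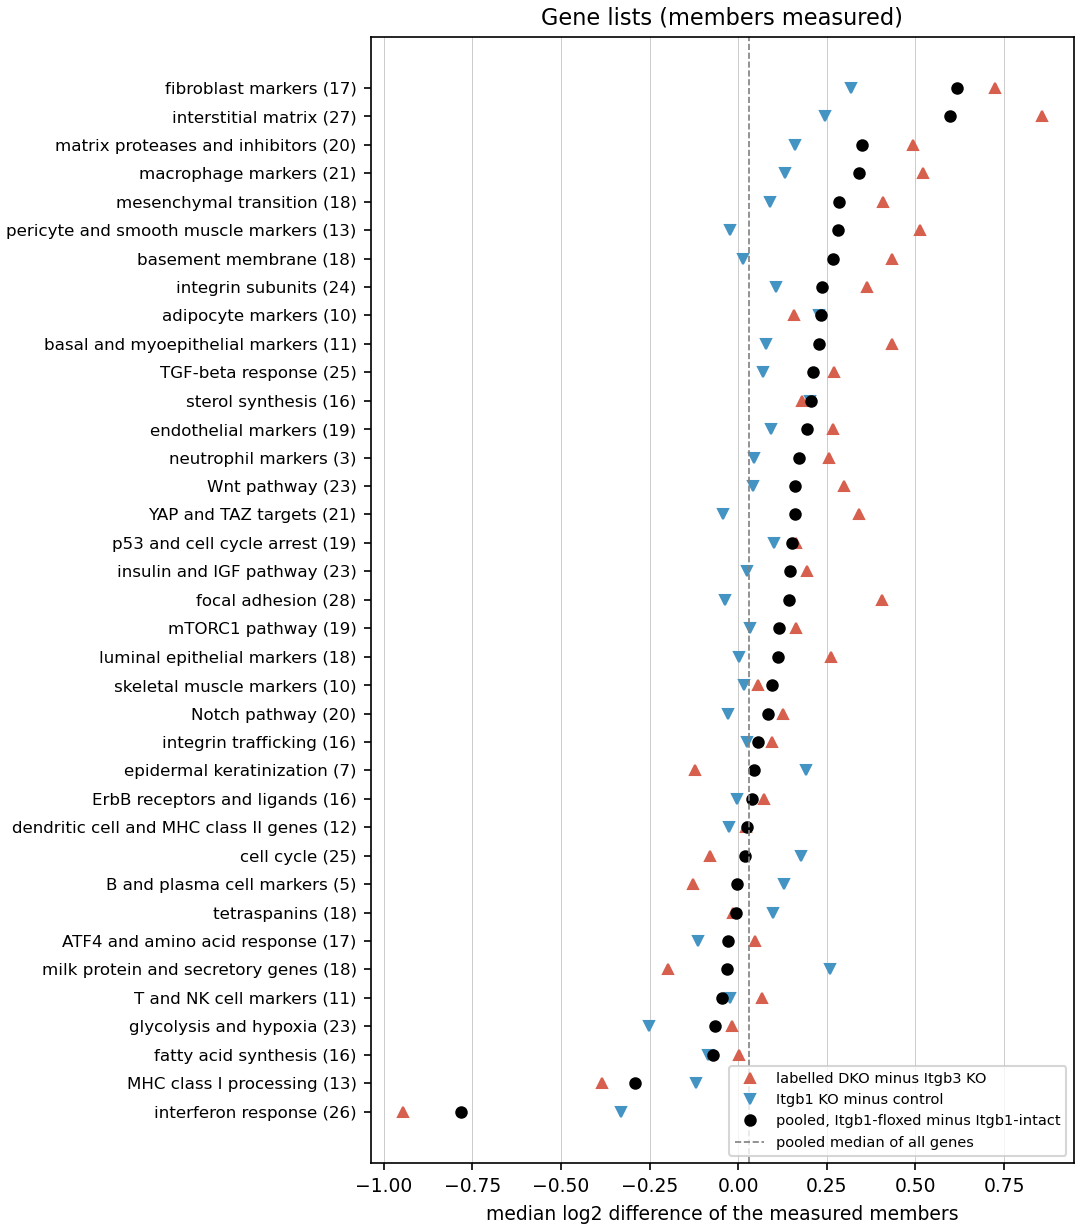
Median log2 difference of the measured members of 37 gene lists in the pooled comparison (black circles), in labelled DKO minus Itgb3 KO tumours (red triangles up) and in Itgb1 KO minus control tumours (blue triangles down), with the pooled median of all genes (dashed). Fibroblast and interstitial matrix lists lie highest, at 0.62 and 0.60, and the interferon response list lowest, at -0.78.

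Interferon response genes lay on the lower side in the Itgb1-floxed tumours. Of 30 genes 26 were measured, all 26 had a difference below 0, and 20 had an unadjusted p under 0.05, against 4.52% of all genes in that direction. Their median was -0.78, and none passed. Of all genes, 57% had a difference above 0. Many promoters of such genes carry the interferon-stimulated response element, whose core pairs 2 copies of TTTC. Promoter windows of 250 bases before to 50 after the start were matched in RefSeq (GRCm38.p6) for 20 of the 26 genes, and 12 of them held TTTCNNTTTC or, on the other strand, GAAANNGAAA. The same letters stood in 3.59% of the tested genes with a window (398 of 11097) and in 3.44% of all 32851 windows. The 4 genes with the smallest p among those with a window are shown, gene strand 5′ to 3′, with the matches in capitals, to let the matched and unmatched windows be read side by side. They lie at chr11:72301379-72301678 (+ strand, Xaf1), chr12:26456403-26456702 (- strand, Rsad2), chr19:34640639-34640938 (+ strand, Ifit1) and chr8:71537423-71537722 (- strand, Bst2).
Xaf1: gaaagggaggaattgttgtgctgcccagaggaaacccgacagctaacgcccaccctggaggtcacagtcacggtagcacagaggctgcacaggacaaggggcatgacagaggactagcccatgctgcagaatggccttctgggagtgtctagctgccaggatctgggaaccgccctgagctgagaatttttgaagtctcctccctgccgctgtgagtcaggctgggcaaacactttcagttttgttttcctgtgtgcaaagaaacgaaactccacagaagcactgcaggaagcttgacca
Rsad2: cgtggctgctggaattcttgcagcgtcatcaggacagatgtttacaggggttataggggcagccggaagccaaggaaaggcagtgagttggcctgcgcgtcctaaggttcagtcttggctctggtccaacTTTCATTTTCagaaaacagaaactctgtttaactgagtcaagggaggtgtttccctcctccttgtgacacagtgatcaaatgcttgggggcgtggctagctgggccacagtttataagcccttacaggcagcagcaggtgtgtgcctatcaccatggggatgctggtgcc
Ifit1: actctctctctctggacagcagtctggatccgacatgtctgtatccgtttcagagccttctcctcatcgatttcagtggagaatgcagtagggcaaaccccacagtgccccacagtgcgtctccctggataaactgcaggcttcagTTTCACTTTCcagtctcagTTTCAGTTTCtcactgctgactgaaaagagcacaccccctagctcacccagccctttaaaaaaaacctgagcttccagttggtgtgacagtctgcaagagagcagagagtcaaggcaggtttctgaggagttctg
Bst2: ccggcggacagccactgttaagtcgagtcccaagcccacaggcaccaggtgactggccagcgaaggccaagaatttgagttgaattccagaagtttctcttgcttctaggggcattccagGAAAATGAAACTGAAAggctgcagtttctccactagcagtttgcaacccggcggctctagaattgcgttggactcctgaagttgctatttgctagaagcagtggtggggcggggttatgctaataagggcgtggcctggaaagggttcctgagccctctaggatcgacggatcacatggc
Rsad2 had 1 match, Ifit1 2, and Bst2 2 that overlap. The Xaf1 window had 0, which says only that these letters are not in it.

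The levels of these genes varied widely among tumours of the same group. Xaf1, an interferon-induced regulator of apoptosis, had a lowest, median and highest log2 level of 5.57, 7.16 and 8.40 in the Itgb1-floxed tumours and 6.79, 8.40 and 9.23 in the Itgb1-intact tumours. Its difference was -1.18 (SE 0.36, 2.27-fold, adjusted p = 0.171), and 4 of 10 Itgb1-floxed tumours lay below every Itgb1-intact one. Usp18, which removes ISG15 from proteins, lay at 4.99, 7.50 and 10.03 in the Itgb1-floxed tumours and 7.15, 9.81 and 10.99 in the Itgb1-intact tumours, and differed by -1.80 (0.206). The receptor transporter Rtp4 differed by -1.20 (0.187), the antiviral enzyme viperin (Rsad2) by -0.94 (0.22), the RNA-binding Ifit1 by -1.51 (0.231) and tetherin (Bst2) by -1.33 (0.232). The mean of the 26 genes, relative to the Itgb1-intact mean, was -1.18, 0.61 and -0.38 in Itgb1 KO tumours 1 to 3 and close to 0 in the other, and -1.51, -1.60, -1.11, -1.92, -0.59 and -0.42 in the 6 labelled DKO tumours. It was 0.30, 0.49, -0.35 and -1.17 in the Itgb3 KO tumours and -0.88, 1.02, 0.61, -0.20 and 0.17 in the controls. All 6 labelled DKO tumours and Itgb1 KO tumours 1 and 3 were below 0, Itgb1 KO tumour 4 was close to 0, and Itgb1 KO tumour 2 was among the highest of all. On the Itgb1-intact side Itgb3 KO tumours 3 and 4 and controls 1 and 4 were also below 0, with Itgb3 KO tumour 4 and control 1 the lowest. Antigen processing genes of MHC class I, many of which interferons also induce, had a median of -0.29. Of these 13 genes 12 lay below 0, while 57% of all genes lay above 0. The immunoproteasome subunits Psmb9 and Psmb8 differed by -0.92 and -0.80, and the activator subunit Psme1 by -0.27 (adjusted p = 0.184, 0.19 and 0.248). The interferon median ran from -0.93 to -0.62 with single tumours left out, and was -0.64 with fibroblast and adipocyte covariates.

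**Figure D4:**
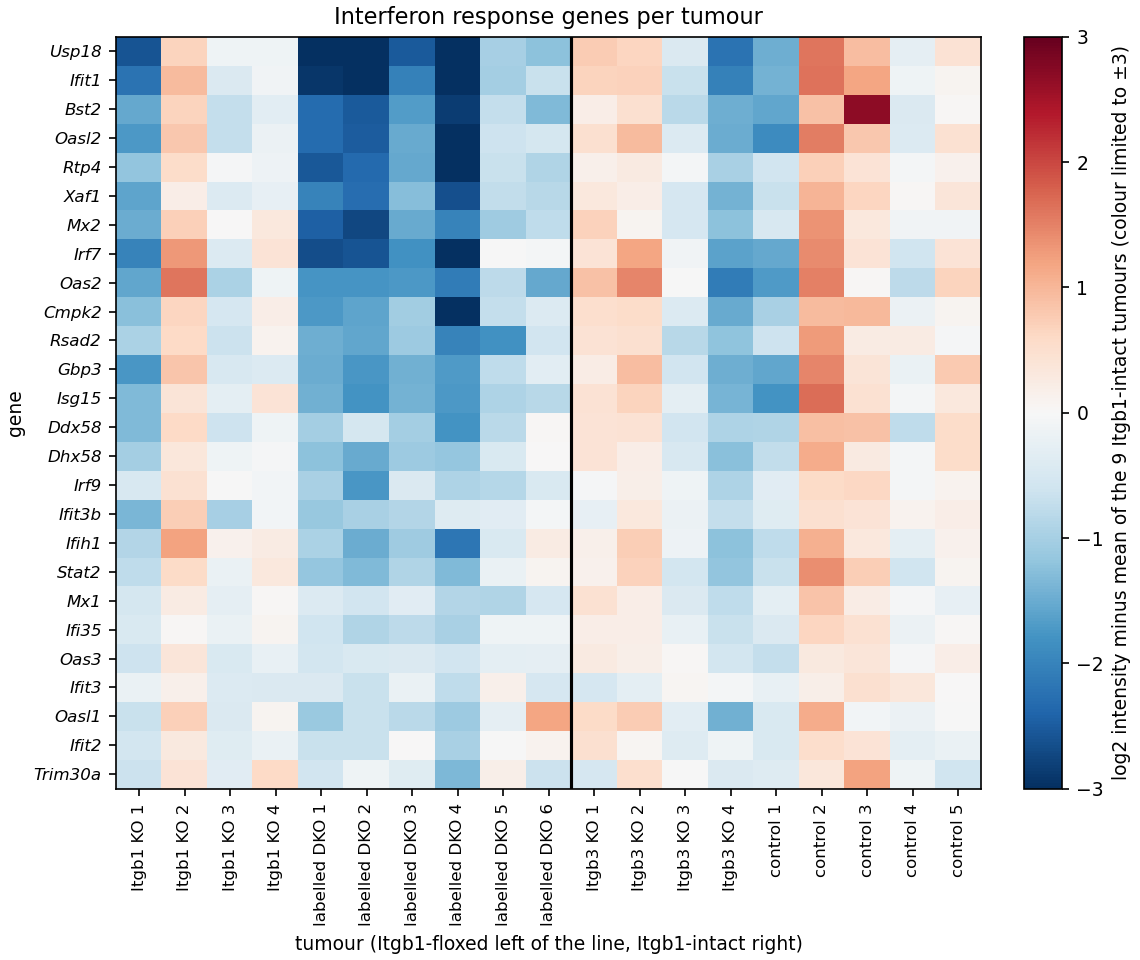
Log2 intensity of 26 interferon response genes (rows) in each tumour (columns), shown as the difference from the mean of the 9 Itgb1-intact tumours on a colour scale limited to 3 either side of 0. The lowest means over the rows are those of labelled DKO tumours 4, 2 and 1 (-1.92, -1.60 and -1.51), Itgb1 KO tumour 1 (-1.18), Itgb3 KO tumour 4 (-1.17) and labelled DKO tumour 3 (-1.11), and the highest is that of control 2 (1.02).

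Focal adhesion genes, which carry integrin signals into the cell, had small pooled differences. Of 28 focal adhesion genes 22 lay above 0 (57% of all genes did), with a median of 0.14. Their median was 0.41 in labelled DKO against Itgb3 KO and -0.04 in Itgb1 KO against control. For 12 of the 28 these comparisons differed at an unadjusted limma interaction p under 0.05, against 12.5% of all genes. The parvin Parva, which binds integrin-linked kinase, differed by 0.36 (adjusted p = 0.154), Dock1, a Rac activator downstream of integrins, by 0.35 (0.159), and Tgfb1i1, the focal adhesion adaptor Hic-5, by 0.44 (0.223). For Dock1, 7 of 10 Itgb1-floxed tumours exceeded every Itgb1-intact tumour. Integrin trafficking genes had a median of 0.06. The small GTPase Rab4a, which returns integrins from early endosomes to the surface, differed by 0.52 (0.159), with 0.91 in Itgb1 KO against control (unadjusted p = 0.000104, adjusted 0.369) and 0.12 in labelled DKO against Itgb3 KO. Rab4a averaged 6.35 ± 0.22 (SD, n = 4) in the Itgb1 KO tumours and 6.11 ± 0.27 (n = 6) in the labelled DKO tumours, against 5.99 ± 0.40 (n = 4) in the Itgb3 KO tumours and 5.44 ± 0.23 (n = 5) in the controls. The endocytic adaptor Dab2 differed by 0.50 (0.195), and tetraspanins, membrane partners of integrins, had a median of -0.01.

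Growth factor pathways that share kinases with integrins showed single genes on both sides. In the ErbB list, with a median of 0.04, the ligand gene Tgfa differed by 0.54 (adjusted p = 0.172) and the ligand gene Egf by -0.91 (0.385). For Tgfa and Egf the labelled DKO and Itgb3 KO tumours did not overlap, while the Itgb1 KO tumours and controls did. Egf lay at 4.05 to 6.16 in labelled DKO tumours and 6.32 to 7.91 in Itgb3 KO tumours. It lay at 6.16 to 7.91 in Itgb1 KO tumours and 4.71 to 7.92 in controls. In the insulin and IGF list 18 of 23 genes lay above 0 (57% of all genes did), with a median of 0.15. That median was 0.19 in labelled DKO against Itgb3 KO and 0.03 in Itgb1 KO against control. Igfbp4 and Igfbp7, which encode IGF-binding proteins, differed by 0.64 and 0.46 (0.172 and 0.233), and the kinase gene Akt2 by 0.22 (0.238). In the mTORC1 list, with a median of 0.11, Deptor, an inhibitor of mTOR, differed by 0.73 (0.157) and lay at 9.28, 10.27 and 10.82 (lowest, median, highest) in the Itgb1-floxed tumours against 8.92, 9.33 and 10.01 in the Itgb1-intact tumours. Rptor, the mTORC1 scaffold raptor, differed by 0.44 (0.159), and Rragd, a GTPase that brings mTORC1 to lysosomes, by -1.04 (0.208). Rptor lay at 8.08 to 8.57 in labelled DKO and 7.46 to 7.69 in Itgb3 KO tumours, and Rragd at 4.65 to 7.25 and 7.48 to 8.30. In Itgb1 KO tumours and controls the ranges overlapped, at 7.61 to 7.87 and 7.61 to 8.04 for Rptor and 6.42 to 7.85 and 6.79 to 8.41 for Rragd. Target genes of YAP and TAZ had a median of 0.16. It was 0.34 in labelled DKO against Itgb3 KO and -0.04 in Itgb1 KO against control. The highest of these genes, the phosphatase gene Ptpn14, differed by 0.76 (0.136), with 0.72 and 0.70 in the same order.

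Proliferation, metabolism and lineage lists had medians on both sides of the 0.03 of all genes. Cell cycle genes had a median of 0.02, with Ccnd1 (cyclin D1) at 0.34 and Birc5 (survivin) at 0.33. The cell cycle median was -0.08 in labelled DKO against Itgb3 KO and 0.18 in Itgb1 KO against control. Glycolysis and hypoxia genes had -0.07, fatty acid synthesis genes -0.07, with the fatty acid synthase gene Fasn at 0.54 (adjusted p = 0.171), and sterol synthesis genes 0.21. Luminal markers had 0.11, with the mucin gene Muc1 at 0.66 (0.159), and basal and myoepithelial markers 0.23, with the desmosomal cadherin Dsg3 at 1.11 (0.184) and the Notch ligand Jag1 at 0.66 (0.19). Milk protein genes had -0.03, with -0.20 in labelled DKO against Itgb3 KO and 0.26 in Itgb1 KO against control. Wnt pathway genes had 0.16, with Wnt5a at 0.67 (0.159), TGF-β response genes 0.21 and Notch genes 0.08. No member of any of the 37 lists other than Itgb1 passed in the pooled comparison.

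The pooled comparison consists of 2 comparisons that share no tumour, labelled DKO against Itgb3 KO and Itgb1 KO against control, and these differed in how many genes they called. Fitted alone, labelled DKO against Itgb3 KO called 448 genes (3.15%), 338 higher (2.38%) and 110 lower (0.773%), while Itgb1 KO against control called 1 (0.00703%), Itgb1. At an unadjusted limma p under 0.05 Itgb1 KO against control had 476 genes (3.34%), fewer than the 711.55 that a uniform p would give. Itgb1 fell by 1.72 in the labelled DKO tumours (SE 0.23, adjusted p = 0.00979) and fell by 1.46 in the Itgb1 KO tumours (SE 0.16, adjusted p = 0.0275). The call of Itgb1 in Itgb1 KO against control was lost without Itgb1 KO tumour 2 or 4 or without control 1, 3, 4 or 5 (0 genes each), and 3 genes were called without Itgb1 KO tumour 1. Among integrins in labelled DKO against Itgb3 KO, Itga2 rose by 0.93 (adjusted p = 0.0378) and Itgb4 by 1.05 (0.0406). Itgb3 differed by 1.13 (0.038), with the Itgb3 KO tumours as the low group. Its labelled DKO levels (7.69 to 8.55) overlapped those of the controls (7.72 to 8.41). Basement membrane genes had 6 of 18 members called higher there, with Hspg2 at 0.88 (0.0291), and Col15a1 was the 1 called of 27 interstitial matrix genes, at 0.99 (0.0406). Other genes called higher were the Notch ligand Jag1 (1.20, 0.0126), the ErbB ligand Tgfa (1.01, 0.0126), Rptor (0.79, 0.0126), Wwtr1, which encodes TAZ (0.51, 0.0287), Wnt5a (0.91, 0.0303), Igfbp4 (1.13, 0.0303) and the macrophage marker Adgre1 (0.98, 0.0304). None of the 26 interferon genes was called, with medians of -0.95 in labelled DKO against Itgb3 KO and -0.33 in Itgb1 KO against control.

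Genes called in labelled DKO against Itgb3 KO showed little of that difference in Itgb1 KO against control. Of the 448, 220 (49.1%) had the same direction there, against 51.4% of all genes, and 6 (1.34%) had it with an unadjusted p under 0.05, against 2% of all genes, while 4 had the opposite direction at that p. The 338 higher genes had a median of 0.64 in labelled DKO against Itgb3 KO and 0.01 in Itgb1 KO against control, and the 110 lower genes -0.57 and 0.04. Over all genes the differences of the 2 comparisons had a Pearson correlation of 0.07 and a Spearman correlation of 0.05, where genes are not independent. The 6 genes were Itgb1, Mapk9 (0.76 in labelled DKO against Itgb3 KO and 0.50 in Itgb1 KO against control), Foxd2os (1.02 and 0.54), Xylt1 (0.50 and 0.39), Syt11 (0.60 and 0.33) and 1 predicted gene. Their count was 14 without Itgb1 KO tumour 2 or control 5, 11 without Itgb1 KO tumour 3, labelled DKO tumour 5 or control 3, 3 without labelled DKO tumour 1 or Itgb3 KO tumour 4, and 1 without Itgb3 KO tumour 1. The count of 448 was 31 to 655 with 1 tumour left out. It was 31 without Itgb3 KO tumour 1, 94, 60 and 95 without Itgb3 KO tumours 2, 3 and 4, and 74, 219 and 211 without labelled DKO tumours 1, 2 and 3. Array distributions moved with the same groups. All 6 labelled DKO arrays had lower medians (4.32 to 4.34) and higher upper quartiles (6.38 to 6.42) than all 4 Itgb3 KO arrays (medians 4.41 to 4.48, upper quartiles 6.35 to 6.36), and the count was 1573 with arrays centred on their medians and 226 with quantile normalization.

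**Figure D5:**
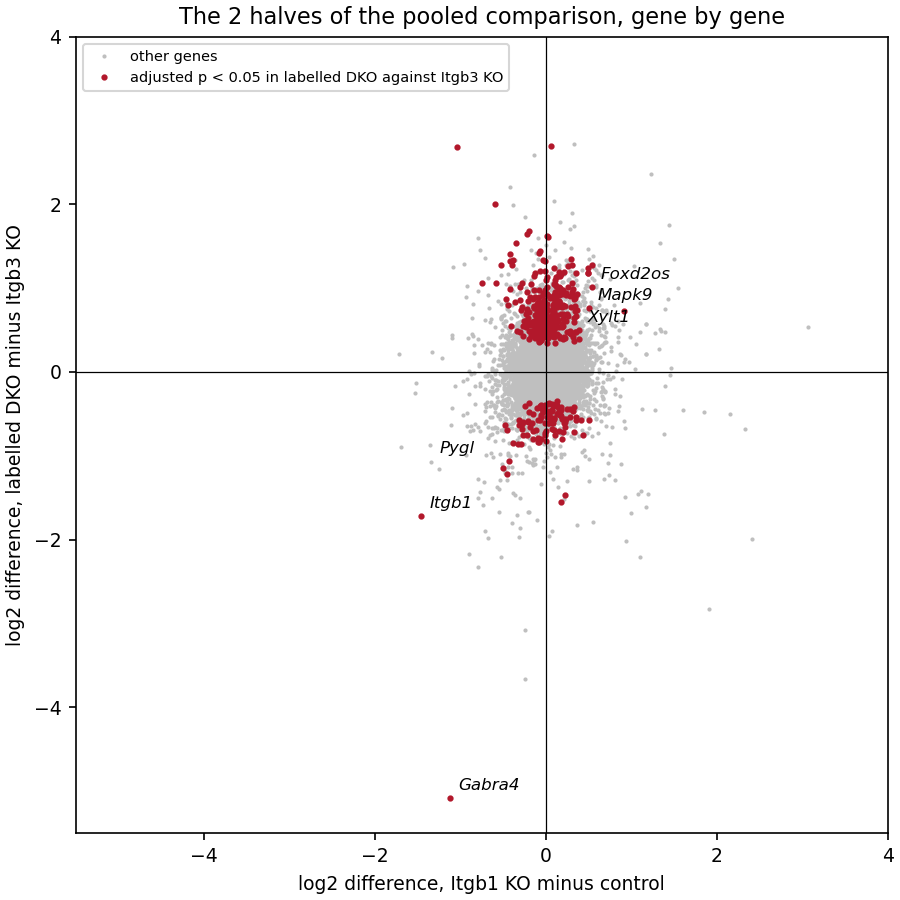
Log2 difference of every gene (points) in labelled DKO minus Itgb3 KO tumours (vertical) against Itgb1 KO minus control tumours (horizontal), with the 448 genes called in the vertical comparison in red. Itgb1 lies low on both axes at -1.72 and -1.46, while most red points lie near 0 on the horizontal axis.

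Whether the difference between Itgb1-floxed and Itgb1-intact tumours itself differed with the Itgb3 label was tested as an interaction. No gene passed (smallest limma adjusted p 0.0963), and 1777 genes (12.5%) had an unadjusted p under 0.05. Without control 2 there were 5 such genes past the threshold, 2 without Itgb1 KO tumour 1, and 1 without either labelled DKO tumour 5 or Itgb3 KO tumour 3. The 3 genes with the smallest p had the same adjusted p of 0.0963. Lhx2, a homeobox factor, averaged 4.32 ± 0.19 (SD, n = 6) in labelled DKO against 5.12 ± 0.15 (n = 4) in Itgb3 KO tumours, and 4.67 ± 0.23 (n = 4) in Itgb1 KO against 4.48 ± 0.11 (n = 5) in control tumours. The Itgb3 KO tumours were the high group for Lhx2, so its difference was -0.80 among Itgb3-floxed tumours and 0.19 among the others. Nlgn2, a synaptic adhesion protein, had differences of 0.55 and -0.41 in the same order, and Tnfrsf1b, the TNF receptor TNFR2, 0.80 and -0.45. For these 2 genes the labelled DKO and control tumours were the higher groups, so the pooled differences were small (0.09 and 0.23). For Itgb1 the interaction was -0.26 (SE 0.29, unadjusted p = 0.382).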

How the data were processed

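Gene expression was measured in 19 mouse mammary tumours on an Affymetrix whole-transcript array, from total RNA per the labels' protocols. The table the authors deposited holds a log2 intensity for each of 41345 probe sets in each tumour. Its normalization used Affymetrix Expression Console, per the submitters' processing notes, which name no version. How background was corrected and probes summarized, and when arrays were scanned, is not given in the sources used here. No further scaling was applied, and precision is limited by how many arrays there are.

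Of the probe sets, 23521 had 1 gene symbol, 1814 several and 16010 none. Those with 1 symbol were kept where they reached the table median (4.38) on at least 4 arrays, and the set with the highest mean stood for a gene. No probe set without a single symbol passed. Tests used limma 3.58.1 (lmFit, eBayes) in R 4.3.3, two-sided, with Benjamini-Hochberg adjustment over 14231 genes and a threshold of 0.05. The pooled comparison had 10 tumours against 9 with no covariate. Itgb1, Itgb3 and Erbb2 also had exact permutation tests. The fits were tested on simulated data.

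The compared groups, the 37 gene lists and the rules were chosen with earlier results of these data known. Named were the 8 genes per direction with the smallest p (those that passed first), up to 3 members of each list, the 3 interaction genes with the smallest p and the genes called in one comparison and repeated in the other. Predicted genes were counted only. Alternatives covered scaling, the filter, low values, the probe set of a gene, covariates, array weights, the prior of eBayes and leaving out each tumour. One further alternative, without labelled DKO tumour 6 and Itgb3 KO tumour 2, was chosen after seeing the data.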

Additional observations from a re-analysis of the deposited data

Results flagged for a closer look

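In 5 of 122 groups of values tested (24 genes and 37 list means, each within the 10 Itgb1-floxed and within the 9 Itgb1-intact tumours), 1 tumour lay far from the others by Dixon's criterion, and chance gives about 1 in 20 groups. Itgb3 KO tumour 2 was the lowest Itgb1-intact tumour for 3 of them. Its mean of the interstitial matrix genes was -1.15 relative to the Itgb1-intact mean, with the next tumour at -0.15, its mean of the fibroblast markers was -1.24, with the next at -0.18, and its log2 level of Olfm1 was 4.03, with the next at 4.48. Control 4 had the highest endothelial marker mean of the Itgb1-intact tumours, at 0.36 against 0.08 for the next. Control 2 had the lowest mean of the fatty acid synthesis genes, at -0.24 against -0.06 for the next.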

How the results depend on the processing

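In the pooled comparison Itgb1 passed in every alternative run, with a difference of -1.72 to -1.57. The pooled count of 1 became 3 with arrays centred on their medians, 2 with quantile normalization, 3 with the Itgb3 label as covariate, 5 with equal weight for the 4 group means, 2 with fibroblast and adipocyte marker means as covariates and 240 (199 higher, 41 lower) with array weights, which were lowest for Itgb1 KO tumour 2 (0.609) and highest for labelled DKO tumour 3 (2.21). Leaving out 1 tumour gave 1 to 26 genes in the pooled comparison, 0 to 5 in the interaction, 31 to 655 in labelled DKO against Itgb3 KO, 0 to 3 in Itgb1 KO against control, and 1 to 14 genes of the first of these repeated in the second. Those 6 repeated genes were 20 after centring. Labelled DKO against Itgb3 KO called 1573 genes after centring (1480 higher, 93 lower), 226 with quantile normalization and 145 without labelled DKO tumour 6 and Itgb3 KO tumour 2. Itgb1 KO against control called 0 after centring and 0 with low values raised to the table median. The Itgb3 difference was 0.39 to 0.65 with 1 tumour left out and 0.61 after centring, where it passed. The Erbb2 difference was -0.13 to -0.01 with 1 tumour left out and passed nowhere. The cause of these shifts was not tested.

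Of 172 named genes, 33 that had not passed did so under at least 1 alternative, 33 of them with array weights, and 0 turned sign while passing. Of 1147 list medians under alternatives, 2 moved by more than the spread between tumours, fibroblast markers to 0.02 with the marker covariates and neutrophil markers to -0.03 without the filter. The fibroblast list was adjusted for its own mean there, so its move followed from the fit itself. No paired analysis was possible because the labels give tumour names with no replicate number shared between groups. Values near the table median limit the low genes Foxd2os and Ppp4r4. Labelled DKO values of Gabra4 (2.56 to 4.94) and Lhx2 (4.16 to 4.58) also reached under that median, as did Itgb1-intact values of Syt11 (3.92 to 4.60).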
